A study of Rattus norvegicus with 24 samples.

Results

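Uninjured control rats of this series were compared at 5 weeks and at 3 weeks after a tracer injection, to describe which genes differed between control animals when no spinal injury was involved. The members were 8 of the 24 arrays, chosen by their titles: 4 arrays of 5-week controls, which the labels call the 1 month control, and 4 arrays of 3-week controls, called the 2 week control. The times of 5 and 3 weeks after the tracer come from the group table of the study's methods. All 8 animals were female Long Evans rats of 77 ± 10 days with a non-injured thoracic cord, and each had Fluoro-Gold, a retrograde fluorescent dye, placed in the lumbosacral enlargement so that thoracic neurons projecting there took it up. The labelled neurons were cut out of frozen thoracic cord by laser microdissection, RNA was amplified, and each animal's sample was read on its own array. The comparison groups used beside them were 4 controls at 10 days after the tracer and 2 transected groups. The transected groups were 2 animals 2 weeks after a complete thoracic transection and 2 animals 1 month after it. They had the same 3 and 5 weeks of tracer as the controls. The labels call the 10-day group the 4 day control, and its 10 days also come from the group table. The remaining arrays were 4 at 3 days and 4 at 1 week after transection. These arrays entered the model's estimate of spread and the plot of array positions, and their own differences are not described.

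Propriospinal neurons have their cell body and their whole axon inside the spinal cord and connect its segments, so that they take part in the coordination of forelimbs and hindlimbs and in posture. The long descending ones of the thoracic cord carry signals to the lumbar circuits that drive stepping. Their controls in an injury study serve as the zero line, and a difference between control groups enters each contrast that uses only 1 of them. The time since the tracer, the rats' age at collection and any difference in the handling, amplification or hybridization of the 2 groups were not separated by this design, and their parts in every difference below cannot be told apart. The labels give no day, operator or scan group.

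Neuronal transcripts were bright in both groups, as the labelled cell type has them. The neuronal markers named by the rule of choice were Snap25, a membrane protein of synaptic vesicle fusion, Thy1, a surface glycoprotein, and Nefm, the medium neurofilament. Snap25 had a mean log2 intensity of 12.33 ± 0.01 (SD, n = 4) at 3 weeks and 12.28 ± 0.02 (SD, n = 4) at 5 weeks. Transcripts of other cell types were bright as well. Aldoc and S100b, both abundant in astrocytes, stood at 11.88 ± 0.04 and 11.25 ± 0.03 at 5 weeks, Mbp, the myelin basic protein, at 11.33 ± 0.06, and Ctss, a lysosomal protease of microglia, at 10.57 ± 0.19. In dissected tissue of this kind fewer cells of a type and less RNA per cell cannot be told apart.

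Between the uninjured groups, 2366 of the 23240 probes tested, or 10.2%, passed an adjusted p of 0.05 in limma's moderated test, 1436 (6.18%) higher and 930 (4%) lower at 5 weeks. Without adjustment 30.1% of the probes had a p under 0.05. With every array centred on its own median the split was 2547 higher and 401 lower. The 8 arrays did not overlap at 23% of the probes. The differences that passed were mostly small. Their median was 0.46 on the log2 scale for the higher and -0.39 for the lower probes, and 25 probes differed by more than 1. Of the 2366 probes, 423 (336 higher and 87 lower) kept their direction and stayed past the threshold under 3 other scalings and with each of the 8 arrays left out in turn. The total fell to 614 without 3-week control 3, 978 without 5-week control 4, 1185 without 3-week control 1, 1210 without 5-week control 3 and 1297 without 5-week control 2, and the 3 remaining omissions moved it by less than 1.5 times.

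The direction of a difference followed the brightness of the probe. The tested probes were ranked by their mean log2 intensity and cut into 10 bins of equal size, bin 1 the dimmest. In bin 2, 1 probe passed as higher and 117 as lower at 5 weeks, and the median difference was -0.14. In bin 9, 413 passed as higher and 48 as lower, and the median difference was 0.18. All 4 of the 5-week arrays lay below all 4 of the 3-week arrays over the 5 dimmest bins and above them over the 4 brightest, as the plot of the arrays by brightness shows. The array medians were 73.6 to 75.6 intensity units at 5 weeks and 78.6 to 80.7 at 3 weeks, and the upper quartiles were 197 to 206 and 183 to 188, with no overlap in either. After cyclic loess scaling, which removes such curves array by array, the medians of the bins lay between -0.02 and 0.03, and 599 probes were higher and 518 lower. A gene name was carried by 45.5% of the probes in bin 1 and 73.8% of those in bin 10. Of 12991 named genes, each taken by its brightest probe, 8.43% passed as higher and 2.27% as lower, against 3.01% and 6.58% of 9259 unnamed probes.

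**Figure D1:**
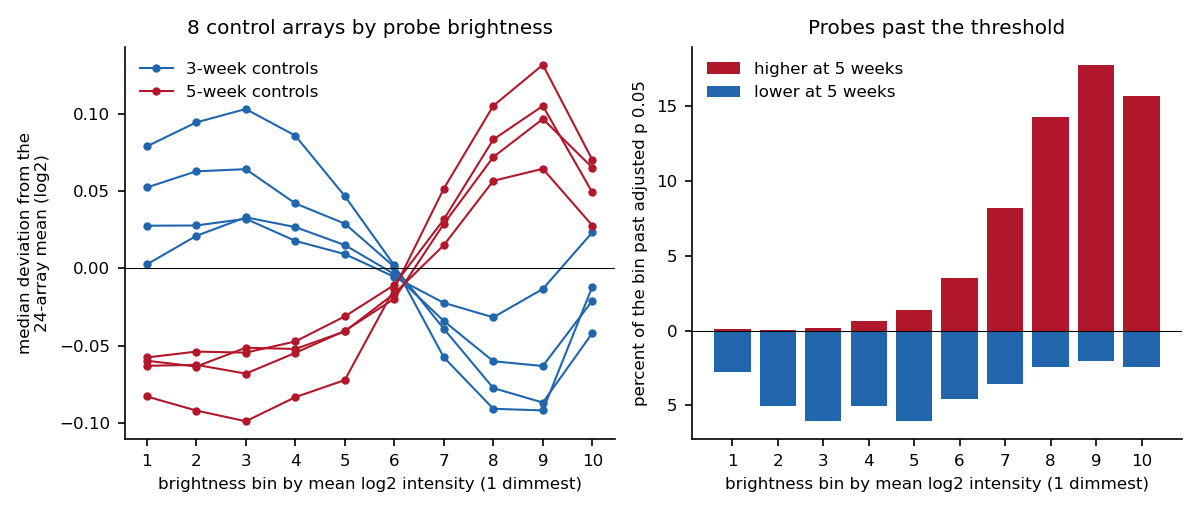
Left, median deviation of each of the 8 control arrays from the mean of 24 arrays (log2) over 10 bins of the tested probes by mean log2 intensity, dimmest first; right, the percent of each bin past an adjusted p of 0.05, with higher at 5 weeks drawn up and lower drawn down. The 5-week lines lie below the 3-week lines in the dim bins and above them in the bright ones, and the called probes follow, with 413 higher in bin 9 and 140 lower in bin 3.

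Among named genes whose 8 arrays did not overlap, the largest rises at 5 weeks were between 0.95 and 1.22 on the log2 scale. Ap1s1, the small subunit of a clathrin adaptor of the trans-Golgi network, read 7.95, 8.51, 8.13 and 7.51 in the 3-week animals and 9.34, 9.09, 9.34 and 9.22 in the 5-week animals. The difference of 1.22 ± 0.22 (SE) had an adjusted p of 0.0053. Bloc1s5, a subunit of a complex that builds lysosome-related organelles, rose by 1.19 ± 0.26 (SE; adjusted p = 0.011). The nuclear deubiquitinase gene Bap1 rose by 1.06 ± 0.20, the cyclin-dependent kinase gene Cdk10 by 1.04 ± 0.21, Morn4 by 1.00 ± 0.18, and Coq5, which acts in the synthesis of ubiquinone, by 0.96 ± 0.17. Cnppd1 rose by 0.97 ± 0.18. The 3-week and 5-week animals did not overlap at any of them. These 7 genes stayed past the threshold under the 3 scalings and every omission of an array. Elovl2, an elongase of polyunsaturated fatty acids, rose by 0.95 ± 0.23 and lost its call without 3-week control 3 (adjusted p = 0.053), and Ift70b, a part of the transport machinery of cilia, rose by 0.97 ± 0.31 and lost it in each of the 8 omissions. Kank4, which codes for an ankyrin-repeat protein of the actin cytoskeleton, read 5.99, 6.18, 5.98 and 5.99 at 3 weeks and 7.21, 6.89, 7.01 and 7.16 at 5 weeks. Its difference of 1.03 ± 0.14 had an adjusted p of 0.0019, and its scaled value under cyclic loess was 1.14.

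**Figure D2:**
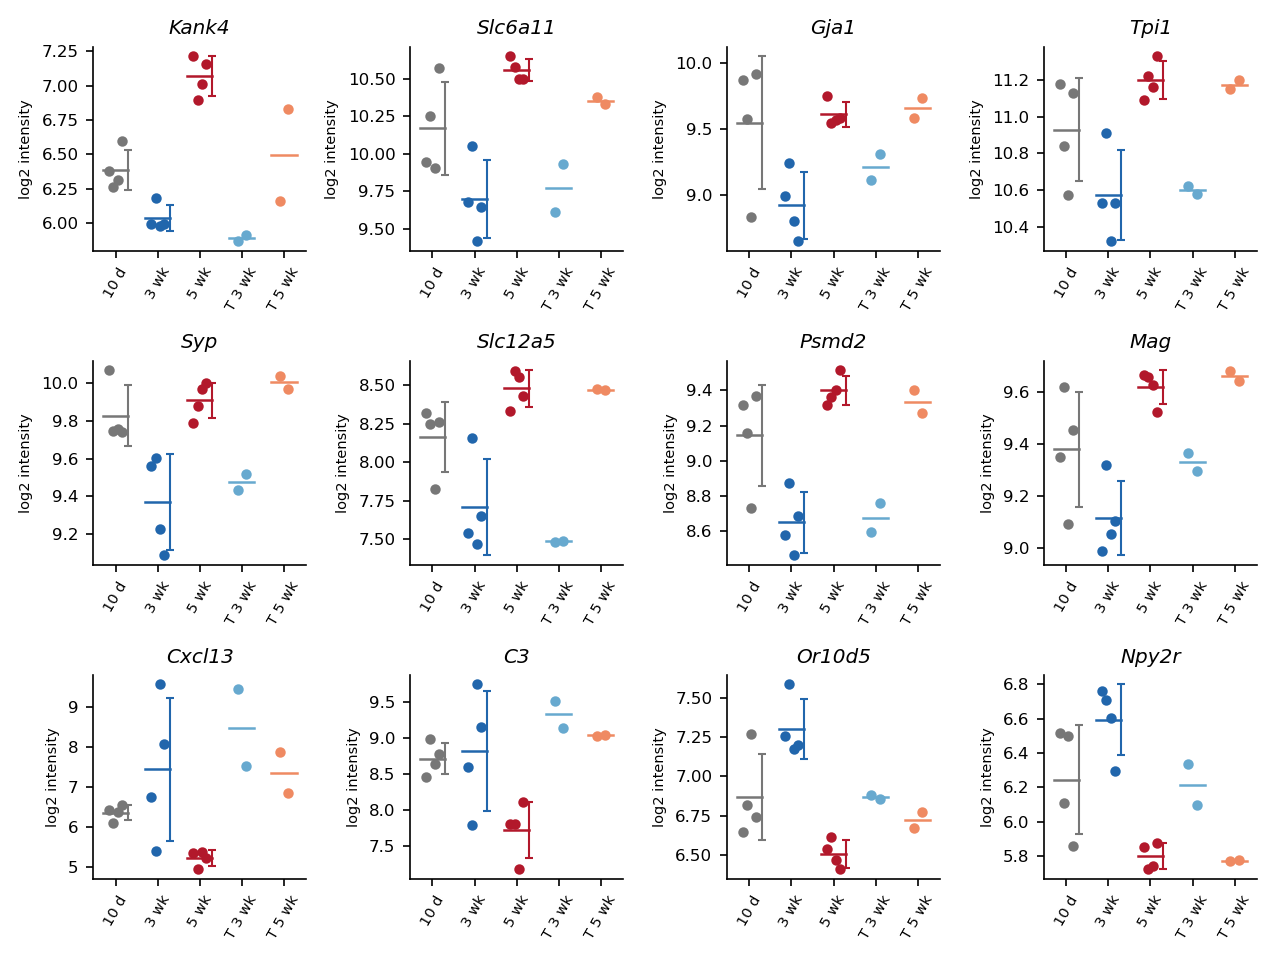
Log2 intensity of 12 genes in each animal: controls at 10 days, 3 weeks and 5 weeks after the tracer (n = 4 each, line at the mean, bar 1 SD) and transected animals (T) at the same 3 and 5 weeks (n = 2 each, line at the mean). Kank4 to Mag lie higher at 5 than at 3 weeks, and Cxcl13 to Npy2r lie lower, with C3 overlapping between the groups; the vertical axes differ between genes and do not start at 0.

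After Cxcl13, described with the inflammation genes, the largest falls at 5 weeks among named genes without overlap were between 0.64 and 0.84. Or10d5, an olfactory receptor gene, read 7.25, 7.59, 7.17 and 7.20 at 3 weeks and 6.54, 6.62, 6.47 and 6.41 at 5 weeks. Its difference of -0.80 ± 0.12 (SE; adjusted p = 0.0020) stayed past the threshold in every setting named above. Npy2r, the Y2 receptor of neuropeptide Y, which dampens transmitter release, read 6.76, 6.71, 6.60 and 6.30 at 3 weeks and 5.86, 5.73, 5.74 and 5.88 at 5 weeks. It differed by -0.79 ± 0.16 (adjusted p = 0.0086), a second probe gave -0.80, and it too stayed past the threshold in every setting. Prp15 differed by -0.84 ± 0.23, Or5p66b by -0.81 ± 0.22, Or6c66b by -0.73 ± 0.17, Dlgap5l2 by -0.65 ± 0.17 and Otor, a secreted protein first described in the inner ear, by -0.64 ± 0.16. Ubd, an inflammation-induced relative of ubiquitin, differed by -0.70 ± 0.20. RT1-CE16, a class I histocompatibility gene with near-identical neighbours that may share its probes, differed by -0.65 ± 0.20. Each of these last 7 genes lost its call with at least 1 array left out, Or6c66b only without 3-week control 3 (adjusted p = 0.052), and the highest adjusted p among their settings was 0.13, for RT1-CE16.

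Astrocyte genes were the group of cell markers with the most calls. Astrocytes clear transmitter and potassium around neurons. Of the 16 astrocyte markers tested, 9 (56.25%) rose at 5 weeks and 0 fell. All 16 differences were above 0, with a median of 0.37 against 0.01 over all named genes. The list's median level of 9.82 lies in bin 10, where 15.7% of all probes passed as higher. Slc6a11, the GABA transporter GAT-3, read 9.68, 10.05, 9.42 and 9.65 at 3 weeks and 10.65, 10.58, 10.50 and 10.50 at 5 weeks. It rose by 0.86 ± 0.14 (SE; adjusted p = 0.0041). The 2 groups did not overlap at this gene. Gja1, the gap junction protein connexin 43, rose by 0.69 ± 0.17 and Fgfr3, a fibroblast growth factor receptor, by 0.57 ± 0.13, and Slc1a2, the main glutamate transporter, rose by 0.40 ± 0.11, while S100b differed by 0.11 ± 0.08 (adjusted p = 0.37). Under cyclic loess the median was 0.27 and 2 markers, Slc6a11 and Fgfr3, stayed past the threshold. The number called was 2 without 3-week control 3 or 3-week control 4, 3 without 5-week control 3, 4 without 5-week control 2 or 3-week control 1 and 5 without 5-week control 1, with the median of the list at 0.33 to 0.48 over all 8 omissions. The list mean of the 3-week animals ran from -0.36 to 0.06 and that of the 5-week animals from 0.11 to 0.32, relative to the 8 arrays.

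Myelin genes showed the same direction with a smaller median. Of 16 oligodendrocyte and myelin markers 5 (31.25%) rose and 0 fell, with a median of 0.26, or 1 call, Mag, and a median of 0.15 under cyclic loess. Their median level of 9.82 also lies in bin 10, where 15.7% of all probes passed as higher. Mag, a glycoprotein of the inner myelin membrane, read 8.99, 9.32, 9.05 and 9.10 at 3 weeks and 9.66, 9.66, 9.62 and 9.52 at 5 weeks. Its rise of 0.50 ± 0.10 (SE; adjusted p = 0.0092) was kept in every setting. Cnp, an enzyme of the myelin sheath, rose by 0.53 ± 0.12 and Gjb1, connexin 32, by 0.54 ± 0.14, the last with overlapping groups. The other two, named after their values were seen, were Mal, a proteolipid, with 0.40 ± 0.12, and Fa2h, which makes the hydroxylated fatty acids of myelin lipids, with 0.40 ± 0.10. Without 5-week control 4 the count was 2, and it was 3 without 5-week control 2 or 3 or 3-week control 1, 3 or 4. Of the 13 endothelial markers 2 (15.4%) rose, Slc2a1 and the tight junction protein gene Cldn5 (0.30 ± 0.09). Their median level of 8.53 lies in bin 9, where 17.8% of all probes passed as higher. Of 24 microglial and macrophage markers 0 passed in limma in either direction (4 at an unadjusted p under 0.05). The medians of the endothelial and microglial lists were 0.22 and -0.11. Aif1, a calcium-binding protein of microglia, read 8.95 to 9.11 at 3 weeks and 8.61 to 8.88 at 5 weeks, a difference of -0.30 ± 0.16 (adjusted p = 0.20), with no overlap between the groups.

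**Figure D3:**
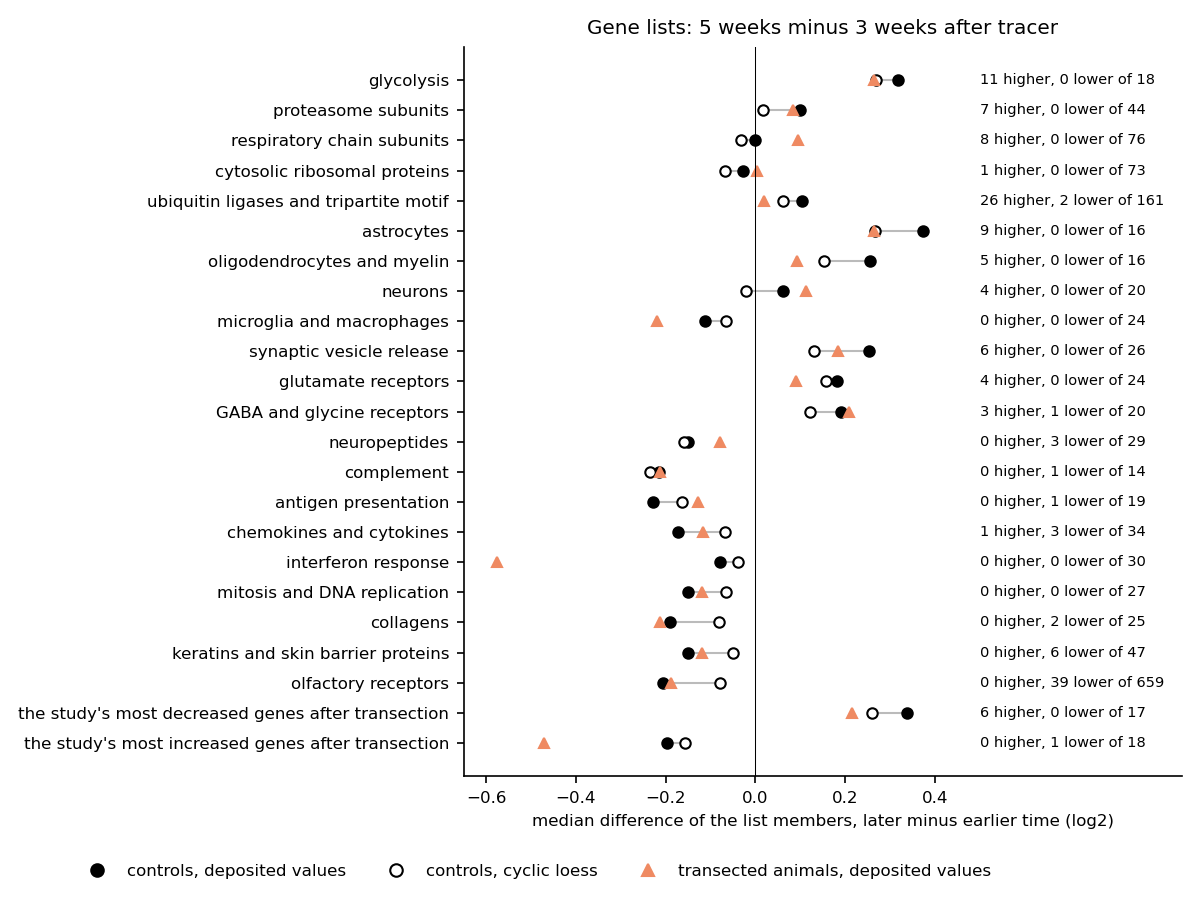
Median difference of the members of 23 gene lists, later minus earlier time after the tracer (log2), for controls as deposited (filled circles), controls after cyclic loess (open circles) and transected animals (triangles); the numbers at the right count the members past an adjusted p of 0.05 in controls. Astrocyte genes, the study's most decreased genes and glycolysis genes have control medians of 0.37, 0.34 and 0.32, and the interferon list, at -0.08 in controls, lies at -0.58 in transected animals.

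Among metabolic genes, glycolysis had the largest share of calls. Glycolysis breaks glucose down to pyruvate and serves both neurons and glia. Of 18 genes on that list 11 (61.1%) rose and 0 fell, with a median of 0.32, or 0.27 and 6 calls under cyclic loess. The list's median level of 10.52 lies in bin 10, where 15.7% of all probes passed as higher. Tpi1, triosephosphate isomerase, read 10.53, 10.91, 10.32 and 10.53 at 3 weeks and 11.09, 11.22, 11.16 and 11.33 at 5 weeks. It rose by 0.63 ± 0.12 (SE; adjusted p = 0.0068), Gpi, the glucose-6-phosphate isomerase, by 0.57 ± 0.12, and Pkm, the muscle and brain pyruvate kinase, by 0.43 ± 0.10, with 3 Pkm probes between 0.43 and 0.49. These 3 calls held in every setting. The list count was 3 without 3-week control 3, 6 without 5-week control 2 or 3-week control 4, and 7 without 5-week control 3 or 5-week control 4. The astrocyte and glycolysis lists share Aldoc, and the endothelial and glycolysis lists share Slc2a1, the glucose transporter of the blood-brain barrier. Slc2a1 rose by 0.74 ± 0.18 (adjusted p = 0.018).

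Other housekeeping machinery moved less evenly. Of 44 proteasome subunits 7 (15.9%) rose and 0 fell, with a median of 0.10, or 2 calls and a median of 0.02 under cyclic loess. That share is near the 15.7% of all probes that passed as higher in bin 10, which holds the list's median level of 9.63. Psmd2, a scaffold of the regulatory particle that unfolds tagged proteins, read 8.58, 8.87, 8.46 and 8.69 at 3 weeks and 9.32, 9.36, 9.40 and 9.52 at 5 weeks, a rise of 0.75 ± 0.12 (SE; adjusted p = 0.0038). Psmd7 and Psmd4, further subunits of that particle, rose by 0.48 ± 0.09 and 0.43 ± 0.10. The others called were Psmd3, Psmd8 and Psmd13, of the same particle, and Psmd9, a chaperone of its assembly. A ubiquitin family of 161 genes was picked by symbol, with ligases, tripartite motif genes and the ubiquitin-specific protease gene Usp43 among them. Of these, 26 (16.15%) rose and 2 fell, with a median of 0.10, or 13, 2 and 0.06 under cyclic loess. The family's median level of 7.05 lies in bin 7, where 8.18% of all probes passed as higher. Rnf167, Rnf26 and Rnf123, which carry the RING domain of ubiquitin ligases, rose by 0.73 ± 0.13, 0.65 ± 0.12 and 0.62 ± 0.11. Rnf39 and Usp43 fell by 0.37 and 0.32. Usp43 lost its call in all 3 scalings and in 3 of the 8 omissions, with an adjusted p of up to 0.17. The 2 genes called lower under cyclic loess thus do not include Usp43. Rnf39 kept its call in the 3 scalings and lost it only without 3-week control 1. Of 76 respiratory chain subunits 8 (10.5%) rose and 0 fell, against 8.43% of all named genes passing as higher. Their median level of 10.81 lies in bin 10, where 15.7% of all probes passed as higher. Of the 76 differences 38 were above 0, so that the median was 0.00. The calls with the smallest p were subunits of ATP synthase, Atp5f1d with 0.51 ± 0.11, Atp5mc2 with 0.46 ± 0.10 and Atp5f1a with 0.32 ± 0.07. Under cyclic loess 2 of the list passed, and Atp5f1d and Atp5mc2 lost their calls. Of 73 cytosolic ribosomal proteins 1 (1.37%) rose, Rplp1 by 0.33 ± 0.10, and the median was -0.03. With a median level of 11.35 this list lies in bin 10, where 15.7% of all probes passed as higher. Rplp1 lost its call under cyclic loess, under quantile scaling and in 7 of the 8 omissions, with an adjusted p of up to 0.12. Under cyclic loess 0 of these ribosomal genes passed as higher and 2 as lower. Without 3-week control 3 the counts of higher genes were 4 for the proteasome, 11 for the ubiquitin family and 3 for the respiratory chain. Omitting 5-week control 3 gave 4, 15 and 5. The ubiquitin family and respiratory chain counts were 17 and 5 without 5-week control 2 and 13 and 5 without 5-week control 4. They were 16 for the ubiquitin family without 3-week control 1 and 5 for the respiratory chain without 3-week control 4.

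Neuronal genes were mixed. Of 20 genes expressed by most neurons 4 rose and 0 fell: Syp, a protein of the synaptic vesicle membrane, Tubb3, the neuronal beta tubulin, Mapt, the microtubule protein tau, and Thy1. Their median was 0.06, and -0.02 under cyclic loess, so that the sign of the list turned with the scaling. The 4 calls are 20% of the list, whose median level of 10.18 lies in bin 10, where 15.7% of all probes passed as higher. Syp read 9.56, 9.60, 9.23 and 9.09 at 3 weeks and 9.79, 9.88, 9.97 and 10.00 at 5 weeks, a rise of 0.54 ± 0.11 (SE; adjusted p = 0.0080). Of 26 genes of vesicle release 6 (23.1%) rose and 0 fell, with a median of 0.25, or 2 calls and a median of 0.13 under cyclic loess. Their median level of 9.08 lies in bin 9, where 17.8% of all probes passed as higher. Sv2a, a vesicle glycoprotein, rose by 0.52 ± 0.11 and Vamp1, a fusion protein common in the spinal cord, by 0.26 ± 0.06, while Snap25 differed by -0.05 ± 0.06 (adjusted p = 0.62). Of 28 genes of the axonal cytoskeleton 6 rose, led by Dpysl2, a tubulin-binding protein of growing axons, with 0.63 ± 0.12, and Tubb5, a further beta tubulin, with 0.53 ± 0.11. That list's median was 0.06, and -0.02 under cyclic loess. Its 6 calls are 21.4% of it, and its median level of 9.91 also lies in bin 10. Without 3-week control 3 the counts of the neuronal and vesicle lists were 2 and 3, and the vesicle count was also 3 without 5-week control 3.

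Receptor and transporter genes of both transmitter classes were among those that rose. Of 24 glutamate receptor genes, with a median of 0.18, or 0.16 under cyclic loess, 0 fell. Against 8.43% of all named genes, 4 (16.7%) rose. They were Grm3, a metabotropic receptor, with 0.52 ± 0.10 (SE; adjusted p = 0.0077), Grin1, the obligatory subunit of the NMDA receptor, with 0.39 ± 0.09, and the kainate receptor subunits Grik4 and Grik5 with 0.37 ± 0.10 and 0.34 ± 0.09. The count was 2 without 5-week control 2 or without 3-week control 4. Slc12a5, the potassium-chloride cotransporter KCC2 that keeps inhibition inhibitory in mature neurons, read 7.54, 8.16, 7.47 and 7.65 at 3 weeks and 8.33, 8.59, 8.55 and 8.43 at 5 weeks. It rose by 0.77 ± 0.13 (adjusted p = 0.0044) and kept its call in every setting. Slc6a5, the glycine transporter that marks glycinergic terminals, rose by 0.58 ± 0.13 (adjusted p = 0.011), and Gad2, a GABA-synthesizing enzyme, by 0.47 ± 0.14 (adjusted p = 0.045). Of the 16 genes of transmitter identity tested, these 2 (12.5%) were the only calls, against 8.43% of all named genes passing as higher. Of that list's differences 9 were above 0 and 7 below, with a median of 0.06. Gad2 lost its call under cyclic loess (adjusted p = 0.16) and in 6 omissions of an array.

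Among neuropeptide precursors the calls were all in the other direction. Of 29 tested 0 rose and 3 (10.3%) fell, 24 of the 29 differences were below 0, and the median was -0.15, or -0.16 under cyclic loess. Their median level of 6.84 lies in bin 6, where 4.56% of all probes passed as lower. Crh, the precursor of corticotropin-releasing hormone, read 6.96, 6.43, 6.27 and 6.31 at 3 weeks and 5.98, 5.80, 5.74 and 6.06 at 5 weeks. It fell by 0.60 on the log2 scale (SE 0.15; adjusted p = 0.021). Oxt, oxytocin, and Trh, thyrotropin-releasing hormone, fell by 0.39 and 0.27. The 3 precursors were dim here, with means of 5.67 to 6.74 at 3 weeks. Each of them lost its call under cyclic loess and under quantile scaling, and 0 members of the list passed under cyclic loess. The count was 1 without 5-week control 1, 2 or 3 or 3-week control 1 or 3. Crh lost its call without 5-week control 2, 5-week control 3 or 3-week control 1.

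Inflammation genes contained the largest single difference. Cxcl13, a chemokine that attracts B cells, read 6.75, 5.38, 9.57 and 8.06 at 3 weeks and 5.35, 4.94, 5.36 and 5.21 at 5 weeks. The 3-week animals differed among themselves by more than 4 log2 units (SD 1.79), and the lowest of them lay only just above the highest 5-week animal. The difference was -2.23 ± 0.63 (SE; adjusted p = 0.031), with the 5-week values near the lowest mean level admitted to the test (5.05), so that no fold is given, and the call was lost under quantile scaling (adjusted p = 0.053) and in 6 of the 8 omissions, with an adjusted p of up to 0.11, and was kept without 3-week control 1 or 3-week control 2. The 10-day controls, at 6.42, 6.08, 6.37 and 6.54, lay between the means of the 2 groups. C3, the central complement component, read 8.60, 7.80, 9.74 and 9.15 at 3 weeks and 7.81, 7.82, 7.18 and 8.12 at 5 weeks. The groups overlapped, the difference was -1.09 ± 0.30 (adjusted p = 0.028), and the call was lost without 5-week control 2 or 3 or without 3-week control 3 or 4. The 2 animals highest in Cxcl13, 3-week controls 3 and 4, were also the 2 highest in C3. Apobec1, a cytidine deaminase, read 6.91 to 7.24 at 3 weeks and 6.19 to 6.60 at 5 weeks, with no overlap, a difference of -0.63 ± 0.23 and an adjusted p of 0.082.

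Beyond these genes the immune lists leaned downward with few calls. C3 was the 1 (7.14%) of 14 complement genes called, 12 of the 14 differences were below 0, and the median was -0.21, or -0.24 under cyclic loess. The complement list has its median level of 6.85 in bin 6, where 4.56% of all probes passed as lower. Of 19 antigen presentation genes 16 differed downward, with a median of -0.23, and 1 (5.26%) fell, Tap1, which carries peptides to class I molecules. Antigen presentation genes have their median level of 6.565 in bin 5, where 6.07% of all probes passed as lower. Tap1 read 6.38, 6.03, 6.48 and 6.25 at 3 weeks and 5.76, 5.70, 6.001 and 5.54 at 5 weeks, a fall of 0.53 (SE 0.12; adjusted p = 0.011) that held in every setting. Of 34 chemokines and cytokines 3 (8.82%) fell, Cxcl13, Ccl20 and Ccl7. The 1 (2.94%) that rose was Cx3cl1, the neuronal chemokine that binds a receptor on microglia, with 0.28 ± 0.09. Chemokines and cytokines have their median level of 6.095 in bin 4, where 0.65% of all probes passed as higher and 5.03% as lower. The Cx3cl1 call was lost in 2 scalings and in 6 of the 8 omissions, with an adjusted p of up to 0.42. Of 30 interferon-induced genes and of 27 genes of mitosis and DNA replication 0 passed in limma in either direction. At an unadjusted p under 0.05 there were 1 and 0 of them. These lists have median levels of 6.73 and 5.97, in bins 6 and 4. As higher and lower, 3.53% and 4.56% of all probes passed in bin 6, and 0.65% and 5.03% in bin 4. Ccl20 differed by -0.56 ± 0.17 and Ccl7 by -0.29 ± 0.09, and neither passed in any of the 3 other scalings. Without 5-week control 2, 5-week control 3 or 3-week control 3 the number of these cytokines called lower was 0.

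Of families best known from other tissues, olfactory receptors, the odorant sensors of the nasal epithelium, were the largest, with 659 genes tested. Of these 0 rose and 39 (5.92%) fell, 595 of the 659 differences were below 0, and the median was -0.21. That share lies within the 2.8 to 6.07% of all probes called lower in the 5 dimmest bins. Their probes were dim, with a median level of 5.51, close to the lowest level admitted. Or8c20 read 6.05, 5.79, 5.89 and 5.68 at 3 weeks and 5.37, 5.16, 5.46 and 5.25 at 5 weeks, and Or1ad8 read 5.57, 5.55, 5.62 and 5.64 at 3 weeks and 5.12, 5.05, 5.20 and 5.20 at 5 weeks. Their differences were -0.54 ± 0.11 (SE; adjusted p = 0.0080) and -0.45 ± 0.09 (adjusted p = 0.0077). The 2 groups did not overlap at either gene. Members of this family share sequence, so that probes may read several of them. Under cyclic loess the family's median was -0.08 and 6 members were called lower, and the count was 6 without 3-week control 3, 13 without 3-week control 1, and 24, 19, 15 and 14 without 5-week controls 1 to 4 in turn.

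Keratins and skin barrier proteins and collagens behaved alike in direction. Of 47 keratin and barrier genes 0 rose and 6 (12.8%) fell, with 45 differences below 0 and a median of -0.15. Krt82, a hair keratin, differed by -0.36 ± 0.08 (SE; adjusted p = 0.013). Of 25 collagen genes 0 rose and 2 (8%) fell, with all 25 differences below 0 and a median of -0.19. Both lists have their median level, 5.985 and 6.04, in bin 4, where 5.03% of all probes passed as lower. Col2a1, the main collagen of cartilage, fell by 0.34 (SE 0.08; adjusted p = 0.013) and Col27a1, a fibrillar collagen, by 0.32 (SE 0.08; adjusted p = 0.020). At 15 of the 25 collagens the 8 arrays did not overlap, against 8.38% of named genes with a separation in that direction. That share covers named genes of every brightness and is not matched to these dim lists. Among the dim keratin and olfactory receptor genes, 15 of 47 and 138 of 659 separated in the same direction. Under cyclic loess the medians of the keratin and collagen lists were -0.05 and -0.08, with 1 and 2 genes called lower. Krt82 lost its call under cyclic loess, under quantile scaling and without 3-week control 3, with an adjusted p of up to 0.084. Without 3-week control 3, 0 keratin and 0 collagen genes passed, and without 5-week control 4, 1 of each. The keratin count was 2 without 5-week control 3 or 3-week control 1.

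The promoters of the called genes differed in their content of CG, as did those of bright and dim genes. Of the 12991 named genes tested, 82.5% had a promoter sequence in RefSeq on GRCr8, and the first listed start of each gene was used, over a window of 300 bases that ends 50 bases after the start. The dinucleotide CG, read on the given strand and its own reverse complement, was counted in each. The median count was 23 in genes called higher, 7 in genes called lower and 18 in all named genes tested, and 94.8% of the 27457 promoters in the table held at least 1. Among the brighter 5 bins the medians were 23 for called higher, 19.5 for called lower and 21 for genes not called, and among the dimmer 5 bins they were 16.5, 6 and 9, the first over only 28 genes. Olfactory receptor promoters had a median of 1. Below are the promoters of the astrocyte, glycolysis and olfactory receptor genes with the smallest p, with every CG in capitals and 5′ to 3′ on the gene's strand, on GRCr8. They lie at chr4:148853307-148853606 (plus strand, 30 CG), chr4:159305039-159305338 (minus strand, 17 CG) and chr8:49197443-49197742 (minus strand, 1 CG).
Slc6a11: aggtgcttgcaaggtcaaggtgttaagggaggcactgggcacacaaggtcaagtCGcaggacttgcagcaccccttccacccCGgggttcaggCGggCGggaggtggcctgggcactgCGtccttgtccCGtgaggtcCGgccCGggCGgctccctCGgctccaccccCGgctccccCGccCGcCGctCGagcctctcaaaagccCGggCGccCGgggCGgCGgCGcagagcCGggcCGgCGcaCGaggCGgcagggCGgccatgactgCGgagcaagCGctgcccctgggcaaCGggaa
Tpi1: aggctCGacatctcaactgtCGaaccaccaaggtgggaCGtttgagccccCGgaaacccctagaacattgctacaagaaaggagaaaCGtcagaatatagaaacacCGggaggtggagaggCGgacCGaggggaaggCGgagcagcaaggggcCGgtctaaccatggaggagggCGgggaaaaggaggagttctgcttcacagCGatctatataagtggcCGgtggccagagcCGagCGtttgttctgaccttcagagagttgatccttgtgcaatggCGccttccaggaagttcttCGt
Or10d5: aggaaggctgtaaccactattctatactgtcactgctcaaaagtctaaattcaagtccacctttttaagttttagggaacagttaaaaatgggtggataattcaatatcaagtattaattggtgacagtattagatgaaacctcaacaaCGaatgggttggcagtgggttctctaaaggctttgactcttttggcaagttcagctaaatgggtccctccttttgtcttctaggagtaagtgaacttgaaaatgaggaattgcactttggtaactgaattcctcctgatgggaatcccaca
Of the 3 windows, that of Slc6a11 holds the most CG and that of Or10d5 the fewest.

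Of the genes that the study itself singled out after transection, some of the most decreased ones were not level in its controls. The list of most decreased genes was chosen by the study on these arrays and so is no independent evidence. It had 17 members tested, of which 6 (35.3%) were higher at 5 than at 3 weeks and 0 lower. The median was 0.34, or 0.26 under cyclic loess. Its median level of 8.77 lies in bin 9, where 17.8% of all probes passed as higher. The count was 3 without any 1 of 5-week controls 1, 2 and 3 and 3-week controls 1 and 4, and 2 without 3-week control 3. The 3 genes with the smallest p were Kank4, Slc6a11 and Kcnj10, the potassium channel of astrocytes that takes up potassium near active neurons. Kcnj10 read 9.36, 9.86, 9.53 and 9.26 at 3 weeks and 9.89, 10.20, 10.21 and 9.96 at 5 weeks, a rise of 0.56 ± 0.14 (SE; adjusted p = 0.020) whose call was lost under cyclic loess, under quantile scaling and in 5 of the 8 omissions, with an adjusted p of up to 0.077. The list of most increased genes had 18 members, of which 0 were higher and 1 (5.56%), Cxcl13, was lower, with a median of -0.20. That call is the Cxcl13 difference given above. The median level of the most increased genes, 6.96, lies in bin 6, where 4.56% of all probes passed as lower. The study chose both lists on contrasts that share these control arrays. Of the genes of the daily clock, 2 of 14 rose, or 14.3% against 8.43% of all named genes, and the median was 0.11. They were Tef with 0.50 ± 0.12 and Cry2 with 0.40 ± 0.10, which lost their calls in 4 and 3 of the 8 omissions. The time of day at collection is not given for single animals, and its part was not tested.

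The other arrays, which entered the model's estimate of spread and not the difference itself, were placed on the same axis. For each array, its value at every called probe was expressed as a position between the 3-week mean, set to 0, and the 5-week mean, set to 1, and the median was taken over the 1436 higher and over the 930 lower probes. The 4 controls at 10 days did not sit together. Control 1 stood at 0.61 and 0.55, control 2 at 0.57 and 0.59, control 3 at 0.10 and 0.02, and control 4 at 0.85 and 0.93. Animals of 1 control group, with the same time after the tracer, thus spread over most of the distance between the 3-week and the 5-week means. At Gja1 the 10-day controls read 9.88, 9.58, 8.83 and 9.92, and at Or10d5 6.65, 6.82, 7.27 and 6.74, with control 3 beside the 3-week animals each time. The array medians of the 10-day controls ran from 74.8 units in control 4 to 81.3 in control 3, and removing these 2 arrays from the model raised the count of called probes to 3921.

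**Figure D4:**
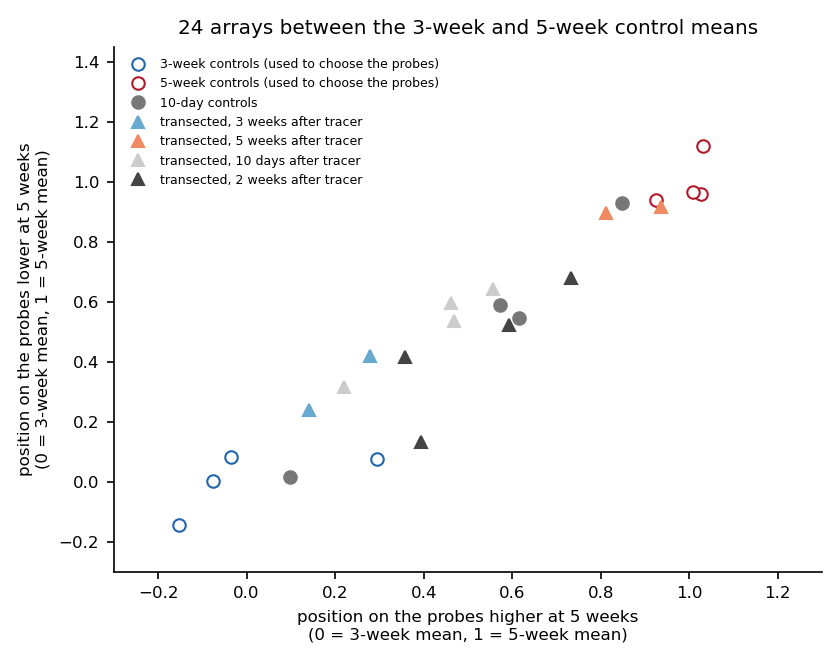
Median position of each of the 24 arrays between the 3-week control mean (0) and the 5-week control mean (1), over the 1436 probes higher at 5 weeks (horizontal axis) and the 930 lower (vertical axis); open circles are the 8 arrays that chose the probes. The 10-day controls run from 0.10 to 0.85 on the horizontal axis, and the transected animals lie at 0.14 and 0.28 on it at 3 weeks and at 0.81 and 0.94 at 5 weeks.

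Transected animals of the same tracer times share no array with these controls and showed the same directions. The 2 animals 1 month after transection stood at 0.81 and 0.94 on the higher probes and at 0.90 and 0.92 on the lower ones, and the 2 animals 2 weeks after transection stood at 0.14 and 0.28, and at 0.24 and 0.42. Of the 1436 probes higher at 5 weeks in controls, 93.7% were also higher in the later transected animals, against 41.1% of all tested probes. Of the 930 lower probes, 94.1% were lower, against 58.8% of all. After cyclic loess the shares were 93.8% and 92.3%, against 49.2% and 50.8% of all. The median transected differences were 0.31 and -0.22, where those of the controls were 0.46 and -0.39. Tested by themselves with 2 animals a side, 5 probes (0.0215%) passed, among them Fa2h with 0.96 ± 0.15 (SE; adjusted p = 0.015) and Arl2, a tubulin-folding GTPase, with 0.81 ± 0.12 (adjusted p = 0.015), and the other 3 carry no gene name. With 1 transected animal omitted 0 to 2 probes passed, and with the replicate block 0. A total of 2798 probes (12%) had an unadjusted p under 0.05. The array medians ran the same way, from 73.7 to 74.98 units at 1 month and from 79.6 to 80.3 at 2 weeks, and so did brightness, with medians of -0.12 in bin 2 and 0.10 in bin 9.

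**Figure D5:**
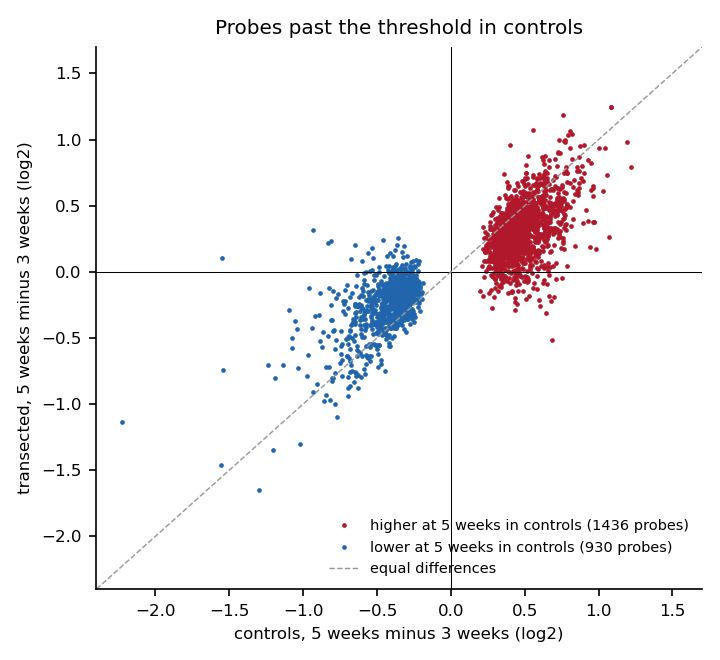
Difference between the later and the earlier time after the tracer (log2) in controls (horizontal axis, n = 4 and 4) and in transected animals (vertical axis, n = 2 and 2) for the 2366 probes past the threshold in controls; the dashed line marks equal differences. Of the probes higher in controls 93.7% lie above 0 on the vertical axis, and of those lower in controls 94.1% lie below it.

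The difference between the control and the transected change was tested directly as an interaction in limma. It passed at 0 probes, with 720 probes (3.1%) at an unadjusted p under 0.05, and the smallest adjusted p was 0.9998. With 2 transected animals a side the size of that difference was poorly fixed at single genes, and the absence of calls does not show equal changes. Glycolysis genes had a median of 0.26 in transected animals and astrocyte genes of 0.26, against 0.32 and 0.37 in controls on the same scale, and 17 of 18 and 12 of 16 of these genes were higher. Collagens had a median of -0.21, with 0 of 25 higher, and olfactory receptors of -0.19. The lists that parted most were the interferon-induced genes and the study's most increased genes, which are not all immune genes. Interferon-induced genes had a median of -0.58 in transected animals, with 0 of 30 higher, against -0.08 in controls. For the study's most increased genes it was -0.47 against -0.20. The complement, antigen presentation and chemokine lists had medians of -0.21, -0.13 and -0.12 in transected animals. In controls these were -0.21, -0.23 and -0.17.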

How the data were processed

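The values were those the authors deposited for 24 Affymetrix Rat Gene 1.0 ST arrays: linear intensity after robust multi-array averaging (RMA) in GeneSpring GX, from 17 to 7980 units. RMA equalizes the arrays' distributions, but the medians of the deposited values differed between arrays. The labels name the WT Ovation Pico kit with the Exon Module and the methods a different Ovation kit, which the sources used here do not reconcile. Levels are relative brightness and are not compared between genes, and precision is set by how many arrays a group has.

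Values were taken to log2, and the lowest 15% of 27342 probes by mean log2 were left out, leaving 23240. A single model of 7 groups was fitted across the 24 arrays with limma 3.58.1 in R 4.3.3, and p-values were adjusted by Benjamini-Hochberg within each comparison. The script was tested on simulated data. Each animal gave 1 array. Replicate numbers did not pair the groups: the correlation of same-numbered deviations was -0.08 to 0.09. Gene names came from the platform's annotation, which gives 15097 probes 1 symbol, 323 several and 11922 none, and genes were named only from the first kind. A gene with several probes was taken at its brightest. The genes named are the 10 largest called differences each way in which the groups do not overlap, up to 3 called members each way of each list with the smallest p, the 3 brightest markers of a cell type, and Cxcl13 and Apobec1. The members, lists and families were chosen with earlier results of these data known. A list is described by its counts and median and was not tested as a set. The alternatives covered the filter, the arrays modelled, the moderation of variances, array weights and 3 scalings (cyclic loess, quantile, median centring). They also covered 1 probe for each gene, a t-test with equal variances, the replicate block and the omission of each array in turn.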

Additional observations from a re-analysis of the deposited data

Results flagged for a closer look

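In 13 of 254 groups of 4 animals, taken over the named genes, the list means and the array measures, 1 animal stood far from the other 3. Chance alone gives about 1 in 20, which is about the share seen here. Genes and list means come from the same arrays, so repeats of 1 animal are not separate observations. In the 3-week controls, control 2 was the high animal for Kank4 (log2 6.18, others 5.98 to 5.99), Grm3 (8.19, others 7.84 to 7.88), the glycolysis list mean (0.0312, others -0.23 to -0.21) and the mean of the study's most decreased genes (-0.0115, others -0.25 to -0.22), and the low animal for the neuropeptide list mean (-0.0367, others 0.12 to 0.16). Control 4 was high for the proteasome list mean (-0.00888, others -0.10 to -0.09) and control 1 for Rnf39 (6.97, others 6.79 to 6.81). In the 5-week controls, Bap1 was low in control 3 (9.37, others 9.68 to 9.70), Gpi was low in control 1 (10.48, others 10.62 to 10.63), Grm3 was high in control 4 (8.62, others 8.40), Grin1 was high in control 2 (8.78, others 8.64 to 8.65), and Kcnh2 was low in control 4 (7.41, others 7.49 to 7.51). The spread of probe deviations was widest in 5-week control 4 (interquartile range 0.27, others 0.21 to 0.22).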

How the results depend on the processing

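The number of probes that differed between the 5-week and the 3-week controls, 2366, was 1064 after quantile scaling and 1117 after cyclic loess. It was 999 in a model of the 12 control arrays, 1490 with 1 probe for each named gene and 5404 with array weights. A t-test with equal variances on the 8 arrays gave 1543 after Benjamini-Hochberg adjustment, or 7301 at an unadjusted p under 0.05. Omitting 1 control array gave 614 to 2396. Of the 2366 probes, 921 were also called in the same direction after cyclic loess, 898 after quantile scaling and 1837 after median centring. With the replicate block the count was 2555. The numbers do not pair the animals, since same-numbered animals correlated at -0.08 to 0.09 and others at -0.13 to 0.11. Added after seeing the data, a model without 10-day controls 3 and 4 gave 3921, and the 8 arrays alone with cyclic loess gave 1360. For the transected animals, 5 probes became 8 without the filter, 10 with an intensity trend and robust moderation, 546 with array weights, 20 after centring, 0 with the replicate block, 18 without 10-day controls 3 and 4, and 0 to 2 with 1 animal omitted, where the lone animal was assumed to vary like the other groups. The interaction gave 0 to 2 probes when 1 array was omitted, with 2 only without the second animal at 1 month. Of 96 genes named here that passed, 39 held in all 3 scalings and 8 omissions, 44 lost the call in at least 1 scaling and 47 in at least 1 omission, 43 of these without 3-week control 3 and 24 without 5-week control 4, and all 96 kept their direction in these 11 settings. No direction was reversed among the results given with a test. The medians of lists moved by more than the spread between animals in 64 alternatives and by less in 442. Signal near the background limits the dimmest families, the olfactory receptors among them.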

Other observations

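Further gene groups held scattered differences between the 5-week and the 3-week controls. Of 20 GABA and glycine receptor genes 3 rose, the subunit genes Gabra5 by 0.51 ± 0.11 (SE) and Glra1 by 0.36 ± 0.09 and the metabotropic receptor gene Gabbr1 by 0.44 ± 0.10, and Gabre fell by 0.31. None of these 4 calls was kept under cyclic loess. The 3 rises are 15% of the list, whose median level of 7.76 lies in bin 8, where 14.3% of all probes passed as higher. Of 39 receptors for monoamines and acetylcholine 1 (2.56%) rose, the serotonin receptor gene Htr2c by 0.56 ± 0.12. Another 1 (2.56%) fell, the adrenergic receptor gene Adra2b by 0.29. Monoamine and acetylcholine receptors have their median level of 6.22 in bin 4, where 0.65% of all probes passed as higher and 5.03% as lower. Htr2c kept its call in the 3 scalings and 8 omissions. Adra2b lost its call in all 3 scalings and in 4 omissions, with an adjusted p of up to 0.09. Of 82 potassium channel genes 4 (4.88%) rose and 5 (6.1%) fell, with 39 differences above 0, 43 below and a median of -0.004. In bin 6, which holds their median level of 6.61, 3.53% and 4.56% of all probes passed as higher and lower. Of the 4 that rose, Kcnab2, an accessory subunit of voltage-gated channels, differed by 0.87 ± 0.15 (adjusted p = 0.0045) and Kcnh2, the channel subunit ERG, by 0.51 ± 0.12.

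Of 61 heat shock and DnaJ genes 9 (14.75%) rose and 0 fell. Their median level of 8.51 lies in bin 9, where 17.8% of all probes passed as higher. The calls were led by Dnajb2, a co-chaperone enriched in neurons, with 0.79 ± 0.14 and Dnajc5, the cysteine string protein of synaptic vesicles, with 0.51 ± 0.10. Of 17 genes of cholesterol synthesis 2 (11.8%) rose, Srebf2, the transcription factor that controls the pathway, by 0.62 ± 0.14 and the enzyme gene Hsd17b7 by 0.51 ± 0.12. The list's median level of 8.27 lies in bin 9, where 17.8% of all probes passed as higher. All 17 were higher in the later transected animals, with a median of 0.32 there against 0.13 in controls. Of 24 lysosomal genes 3 rose, the protease genes Ctsd by 0.50 ± 0.14 and Ctsb by 0.46 ± 0.14 and the saposin precursor gene Psap by 0.30 ± 0.08. These are 12.5% of the list, against 8.43% of all named genes, and 0 passed under cyclic loess. The list's median level of 8.705 lies in bin 9, where 17.8% of all probes passed as higher. Ctsd and Ctsb each lost the call in 7 of the 8 omissions, with adjusted p up to 0.14 and 0.17, and Psap in 5. The serine protease inhibitor gene Serpine2 rose by 0.70 ± 0.11 (adjusted p = 0.0026) and the thyroid hormone receptor gene Thra by 0.49 ± 0.10, and both calls held under the 3 scalings and all 8 omissions. Serpine2 was the 1 rise called among 65 serine proteases and inhibitors, of which 4 (6.15%) fell. Of these 65 differences 56 were below 0, with a median of -0.16. Their median level of 5.81 lies in bin 3, where 6.02% of all probes passed as lower. Of 17 glucocorticoid response genes, 23 immediate early genes and 19 genes of endoplasmic reticulum stress, 0 passed in limma (3, 3 and 6 at an unadjusted p under 0.05), with medians of 0.05, -0.07 and 0.18.

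The interferon-induced genes differed most among the 10-day controls. Relative to the mean of the 8 arrays their list mean was 1.18, 0.33, -0.26 and 1.34 in 10-day controls 1 to 4, while the 8 arrays lay between -0.12 and 0.17.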
